A study of Mus musculus with 6 samples.

Results

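The Dlk1-Dio3 domain on mouse chromosome 12 carries one of the largest miRNA clusters of the mouse genome. Its members were taken as all mouse miRNAs of the array with a probe that the files place on chromosome 12 between 110700000 and 111100000 of the mm9 build, leaving out some number ranges, none of which had a probe there. This gave 79 of the 1881 mouse miRNAs on the array, measured with 199 of 4415 probes. They come from 43 hairpins, 36 of them with both arms among the members, and span 168 kb from 110818455 to 110986159. The files give 73 of the 79 a single genomic position.

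Imprinting means that only the copy from one parent is used. In this domain Dlk1, Rtl1 and Dio3 are expressed from the paternal chromosome, and the long non-coding RNAs Meg3, Rian and Mirg, with a transcript antisense to Rtl1, from the maternal one. Most of the miRNAs are processed from these maternal transcripts and are best known from the brain, the embryo and the placenta. A miRNA hairpin yields a 5p and a 3p arm, and the seed, bases 2 to 8 of the mature arm, is the main part that pairs with target mRNAs.

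The study measured miRNAs in exosomes, small vesicles released by cells, from RAW 264.7, a mouse macrophage cell line. There were 3 control samples from untreated cells and 3 samples from cells given 2 µg/mL lipopolysaccharide (LPS), the outer membrane glycolipid of Gram-negative bacteria to which macrophages respond through Tlr4. Supernatant of LPS-treated cells was taken at 72 h. The labels state no culture time for the control samples, so time in culture and LPS cannot be told apart. The sources used here do not say whether vesicles from the serum of the medium had been removed. They also do not state that the replicates are separate cultures, so the p-values reflect only how much these 3 samples per group varied, which may be technical. Each sample was hybridised to 1 one-colour Agilent array, and the number of arrays limits the precision.

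The arrays carried macrophage miRNAs, since 6 of 7 macrophage markers were detected on all control arrays and 7 of 7 on all LPS arrays. Of 8 mesenchymal and muscle markers, 0 were detected on any array. The neural list had 1 of 6 detected on all control arrays and 4 of 6 on all LPS arrays, with miR-9-5p and miR-124-3p on none. The embryonic and placental list had 0 and 2 of 6, and the serum and erythroid list 0 and 1 of 5. The summed signal of the neural list was 73.3 to 86.9 on the control arrays and 873 to 1017 on the LPS arrays, and that of the embryonic and placental list was 43.6 to 58.6 and 109 to 130. The summed signal was 26.8 to 28.3 and 18.7 to 29.5 for the mesenchymal and muscle list, and 40.8 to 42.2 and 193 to 214 for the serum and erythroid list. The macrophage list rose alongside, from 4892 to 5952 in control to 57309 to 72621 in LPS, and the part of any of these lists in the results was not tested. The LPS arrays were brighter as a whole: among the 198 miRNAs detected on every array, the 75th percentile of the signal was 431.5 to 510.3 in control and 2022 to 2343 in LPS, while the geometric mean of 4 spiked-in RNAs was 2623 to 2791 and 2168 to 2483. Less of a miRNA per vesicle and fewer vesicles cannot be told apart in such samples.

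Only 7 of the 79 members were detected on any array, and 6 of these 7 have a mature sequence in the RefSeq tables (assembly GRCm38.p6), where 76 of the 79 members were matched. They are shown because all measured changes in the cluster rest on them, in the order of their position, with the seed in capitals.
miR-3070-3p: uGGUGCUAccgucagggguaga
miR-370-3p: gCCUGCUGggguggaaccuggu
miR-494-3p: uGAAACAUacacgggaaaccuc
miR-300-5p: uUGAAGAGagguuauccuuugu
miR-134-5p: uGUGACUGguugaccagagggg
miR-3072-5p: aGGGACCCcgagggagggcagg
No seed was shared between these 6. The seventh detected member was miR-487b-3p. Among the 76 matched members 71 different seeds occurred, and 5 seeds were shared by a pair of members each, with none of those 10 members detected. Among mature mouse miRNAs that are not members, miR-3070-2-3p alone shared a seed with one of the 6, that of miR-3070-3p.

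Most of the cluster stayed at the level of the background. Of the 79 members, 72 (91.1%) were detected on no array, against 1345 of the 1802 other mouse miRNAs (74.6%) and 511 of the 751 others numbered below 1000 (68.0%). Detection means the flag that the scanner software sets when a probe of the miRNA exceeds its error estimate. The highest signal of the 72 on any array was 22.8, for miR-433-5p, and 58 of the 72 stayed under 10 on every array. The negative control spots of the same arrays averaged 8.96 to 15.6. A miRNA that is not detected here is not shown to be absent.

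Most of the arms taken here as usually the most abundant were among the undetected ones. A list of 34 such arms of the locus was on the array, 28 of them members, and 24 of these 28 were detected on no array, with signals from −9.17 to 16.1. The 3 arms below are shown as examples from the transcript antisense to Rtl1 and from the start and end of the Mirg group, again with the seed in capitals.
miR-127-3p: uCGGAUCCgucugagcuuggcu
miR-379-5p: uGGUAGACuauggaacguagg
miR-410-3p: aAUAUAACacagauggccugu
miR-127-3p, which is fully complementary to the Rtl1 mRNA and directs its cleavage, ranged from −3.63 to 1.76 over the 6 arrays. miR-379-5p, from the first hairpin of the Mirg group, ranged from −1.96 to 0.60. miR-410-3p, from its last hairpin, ranged from 4.74 to 9.54. All 3 lay below or near the mean of the negative control spots. The other 6 arms of the list, whose probes the files do not place in the window, were detected on no array either.

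Along the chromosome, detection was scattered. At the Meg3 end 1 of 6 members was detected (miR-3070-3p), and of the list named for the transcript antisense to Rtl1, 0 of 10. That list includes 2 members, miR-3071-5p and miR-3071-3p, that the files place on the opposite strand to all others of the cluster. In the Mirg group, from miR-379 to miR-410, 4 of 55 were detected (miR-494-3p, miR-300-5p, miR-487b-3p and miR-134-5p). The list named for Rian had 2 of 8 (miR-370-3p and miR-3072-5p), but by the positions in the files miR-3072-5p lies 4136 bases beyond miR-410-3p, past the end of the Mirg group. For each of the 7 detected members the other arm of the same hairpin was also measured, and it was detected on no array in 7 of 7. The nearest member of another hairpin was likewise undetected on each side that had one. miR-494-3p stood out from its surroundings: of the 29 members within 10 kb of it, 1 was detected, miR-300-5p, and the undetected ones reached 19.5 at most.

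**Figure D1:**
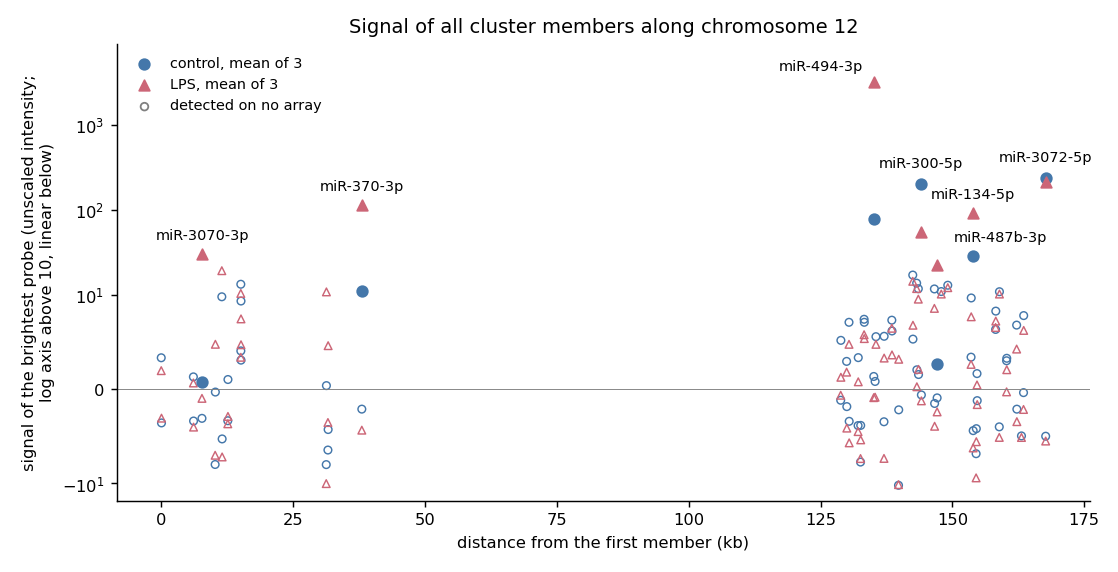
Signal of the brightest probe of each of the 79 members (mean of 3 arrays, unscaled intensity, log axis above 10 and linear below) against the distance from the first member in kb, with control as circles and LPS as triangles, filled where the member was detected on at least 1 array. The 7 filled members are scattered among open ones, and the LPS mean of miR-494-3p (3236) lies far above every other point.

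More members were detected on the LPS arrays than on the control arrays. All 3 control arrays detected 4 members (5.06%), and the LPS arrays detected 7, 6 and 7, which is 8.44% ± 0.731 (SD, n = 3). The groups did not overlap. The other mouse miRNAs went from 11.9% ± 0.452 to 23.4% ± 0.946 (SD, n = 3 each) over the same arrays, so the step for the cluster is to be read beside a rise in detection over the whole array. Of the signal of all detected miRNAs, members supplied 0.500% ± 0.00724 in control and 0.572% ± 0.00906 in LPS (SD, n = 3 each). Without miR-494-3p these shares were 0.428% ± 0.0125 and 0.0794% ± 0.00697, so the makeup of the small share differed more than its size.

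LPS was then compared with control after each array had been divided by that 75th percentile, with limma and Benjamini-Hochberg adjustment over 412 miRNAs. A miRNA was tested if every array of at least 1 group detected it. Of the 79 members 6 met that condition, and of these 3 passed at an adjusted p of at most 0.05 as higher in LPS and 3 as lower. Of the higher ones, miR-370-3p and miR-3070-3p met the condition through the LPS arrays alone, being detected on 0 control arrays. The filter thus favoured a higher call for them in advance, and their p-values are no support. The 412 miRNAs include others that entered in the same way. Over all 412, 65.5% were called higher and 26.7% lower (92.2% in either direction), and over the 198 detected on all arrays 58.1% and 38.4%. The 2 groups did not overlap after scaling for 98.5% of the 198, nor for any of the 4 members among them. Nearly all miRNAs are called in this comparison, so a call by itself says little about a member. The median log2 change was −1.46 over the 4 members detected on all arrays and 0.77 over the 198. The direction of 3 of the 6 calls could be read, because those members were well above background in both groups: 1 was higher, miR-494-3p, and 2 were lower, miR-300-5p and, in this scaling but not with the spiked-in RNAs, miR-3072-5p.

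miR-494-3p, an arm of the Mirg group, was the one clear rise in the cluster. Before scaling its signal was 79.0, 82.3 and 74.1 on the control arrays and 2840, 3463 and 3405 on the LPS arrays. All LPS arrays were far above all control arrays. After scaling it was 188, 166 and 156 in control and 1445, 1521 and 1509 in LPS. The log2 change was 3.14 (SE 0.08, 8.80-fold higher in LPS, n = 3 against 3, limma adjusted p = 8.20e-08), 2.37 above the median of the 198 miRNAs. Its 2 probes, at chr12:110953586-110953598 and chr12:110953585-110953598, differ by 1 base at the 3′ end, in capitals here, and pair with bases 9 to 22 and 8 to 22 of the mature arm. Positions are printed as the files give them, and here they span 1 base less than the probe.
Shorter probe: gaggtttcccgtgt
Longer probe: gaggtttcccgtgtA
Both gave nearly the same ratio before scaling: the shorter probe was 41.2 times and the longer 40.9 times as bright in LPS as in control. The opposite arm of the hairpin, miR-494-5p, stayed between −1.87 and 1.91 on the 6 arrays.

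**Figure D2:**
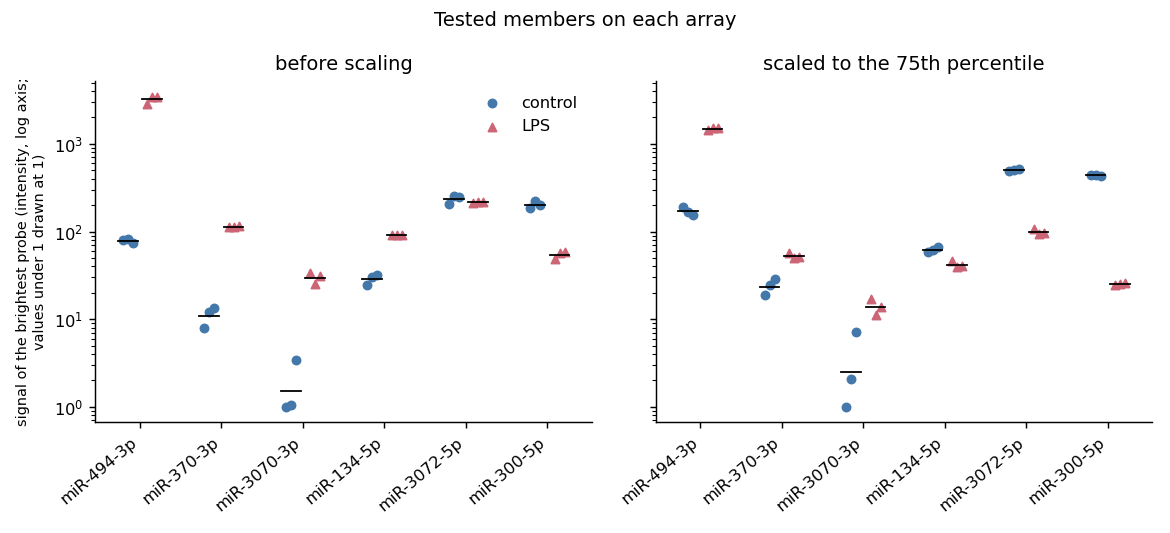
Signal of the brightest probe of the 6 tested members on each array (intensity on a log axis, values under 1 drawn at 1), before scaling on the left and after scaling on the right, with bars at the geometric mean of 3 arrays. miR-494-3p is higher in LPS on both sides, miR-300-5p is lower on both, and miR-3072-5p overlaps between the groups before scaling (206 to 251 against 212 to 216) and is lower in LPS after it.

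miR-300-5p, the 5p arm of another Mirg hairpin, went the other way. Before scaling its brightest probe gave 186, 221 and 203 in control and 48.8, 56.8 and 57.9 in LPS, so the control arrays were higher although the LPS arrays were brighter overall. After scaling it was 444, 445 and 426 in control and 24.8, 24.9 and 25.7 in LPS, again with no overlap. It fell by 4.12 on the log2 scale (SE 0.04, 17.4 times lower, limma adjusted p = 4.71e-09). It lay 4.89 below the median change of the 198 miRNAs.

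That level rests on 1 of its 4 probes, which is why they are shown, with the bases beyond the shortest probe in capitals. They lie on chromosome 12 with a shared end at 110962549, the brightest at chr12:110962531-110962549, and match the mature arm over 19, 20, 21 and 22 bases.
19 bases: acaaaggataacctctctt
20 bases: acaaaggataacctctcttC
21 bases: acaaaggataacctctcttCA
22 bases: acaaaggataacctctcttCAA
The probe of 20 bases averaged 203 ± 17.3 in control and 54.5 ± 4.99 in LPS (SD, n = 3 each). The shortest probe averaged 27.4 and 6.49, and the 2 longer ones 31.0 and 10.3, and 30.1 and 14.9. Each of the 4 was thus dimmer in LPS, by 4.23, 3.73, 3.01 and 2.02 times in order of length, but the probe of 20 bases alone was well above background in both groups. The gene total that the scanner software reports for this miRNA did not follow its probes: it was 30.2, 34.6 and 68.6 in control and 596, 28.4 and 746 in LPS, and with it the change was 0.14 (SE 1.44, limma adjusted p = 0.935). The other arm, miR-300-3p, was between −2.21 and 0.60.

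**Figure D3:**
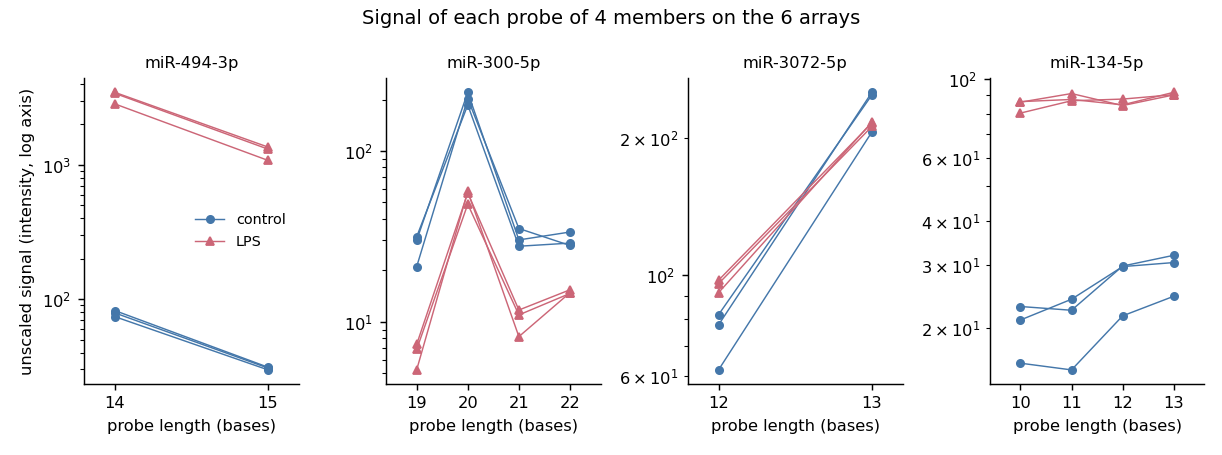
Unscaled signal (intensity, log axis) of each probe of miR-494-3p, miR-300-5p, miR-3072-5p and miR-134-5p against probe length in bases, with 1 line per array, control as circles and LPS as triangles. Both probes of miR-494-3p separate the groups alike, and the probe of 20 bases of miR-300-5p stands above its 3 neighbours on all 6 arrays.

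miR-3072-5p lies at the downstream end of the cluster. Its brightest probe, at chr12:110986113-110986124, gave 206, 251 and 248 in control and 212, 215 and 216 in LPS before scaling, and the groups overlapped. After scaling it was 491, 507 and 521 in control and 108, 94.6 and 95.9 in LPS, with no overlap. It fell by 2.35 on the log2 scale (SE 0.06, 5.10 times lower, limma adjusted p = 1.02e-07), 3.12 below the median of the 198 miRNAs. It was level in raw signal while most miRNAs were brighter in LPS: with no scaling it was at −0.13 (limma adjusted p = 0.190), and scaled to the spiked-in RNAs at 0.06 (SE 0.08, limma adjusted p = 0.440). The shorter of its 2 probes averaged 73.9 in control and 94.9 in LPS before scaling.

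How the arrays were scaled set the absolute size of every change. Over 6 ways of scaling, the median change of the 198 miRNAs ranged from 0.32 with quantile normalization to 3.18 with the spiked-in RNAs. Of these scalings all but quantile normalization shift each array by a constant, which leaves the distance of a member from the median as it is unless values lie at the floor. With quantile normalization that distance was 2.49 for miR-494-3p, −3.001 for miR-3072-5p and −4.71 for miR-300-5p, against 2.37, −3.12 and −4.89. For members near the floor it changed sign over the scalings, from −0.57 to 1.12 for miR-370-3p and from −2.51 to 0.27 for miR-3070-3p. The absolute change of miR-494-3p was above 0 in all of them (2.81 to 5.55) and that of miR-300-5p below 0 (−4.44 to −1.71). By their headers all 6 arrays shared 1 slide, with the controls and LPS 1 in its first row and LPS 2 and LPS 3 in its second. With the row as a block the changes were 3.09 for miR-494-3p, −2.23 for miR-3072-5p and −4.14 for miR-300-5p. Within the first row, where LPS 1 is the single LPS array, they were 3.13, −2.20 and −4.11.

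**Figure D4:**
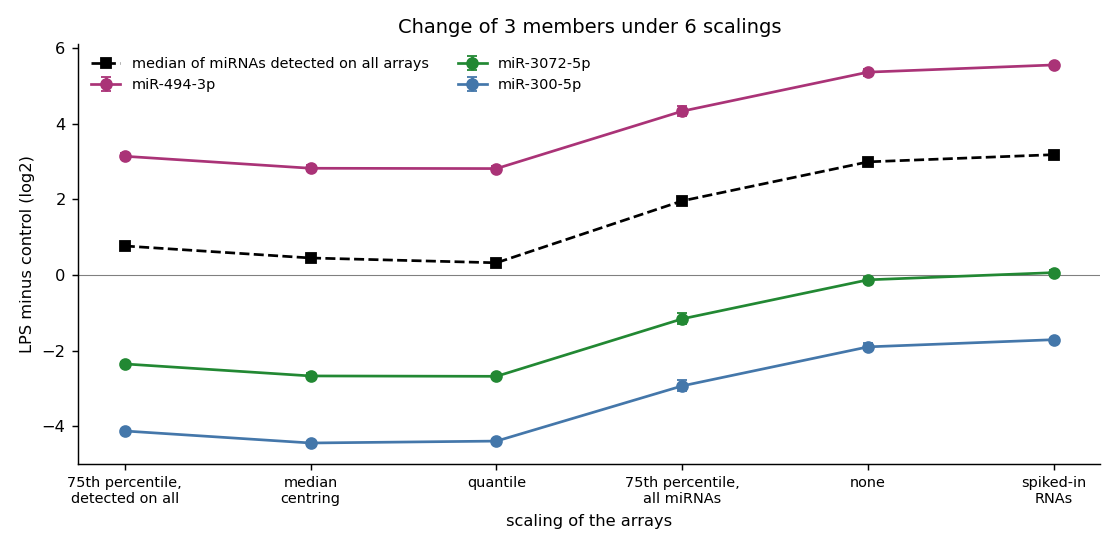
LPS minus control on the log2 scale (points, with the limma standard error as bars) of miR-494-3p, miR-3072-5p and miR-300-5p under 6 ways of scaling the arrays, with the median of the 198 miRNAs detected on all arrays as a dashed line. The 3 members move in parallel with the median, by construction for every scaling but quantile, and the median ranges from 0.32 to 3.18, and miR-3072-5p reaches 0.06 with the spiked-in RNAs.

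The other 3 calls carry no readable direction in the scaling used here. The members were well above background on 0 of 3 control arrays, and after scaling the control background leaves no bound on the change. miR-134-5p, which limits dendritic spine size in neurons by repressing Limk1, was detected on all 6 arrays. Its brightest probe gave 24.5, 30.5 and 32.0 in control and 91.8, 90.2 and 90.4 in LPS before scaling, a gap with no overlap. After scaling the order turned, with 58.5, 61.6 and 67.1 in control and 46.7, 39.6 and 40.05 in LPS (log2 change −0.57, SE 0.08, limma adjusted p = 0.000672). Against the lowest signal that is well above background on each control array no fold can be given after scaling, while unscaled it was at least 2.84-fold higher in LPS and scaled to the spiked-in RNAs at least 3.23-fold.

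miR-370-3p, an arm from the Rian part of the cluster known for targeting Cpt1a, was detected in LPS only. Its brightest probe, at chr12:110856523-110856536, gave 7.95, 12.04 and 13.6 in control and 113, 114 and 115 in LPS before scaling, and the LPS arrays were close to one another and above all controls. After scaling the values were 18.97, 24.3 and 28.5 against 57.4, 50.1 and 50.8 (log2 change 1.16, SE 0.15, limma adjusted p = 0.000349). No fold can be given against the background after scaling, and unscaled it was at least 3.56-fold higher, and at least 4.06-fold scaled to the spiked-in RNAs. The shorter of its 2 probes averaged 0.52 in control and 96.5 in LPS before scaling. The call held in 23 of 24 alternatives. These use the same arrays and mostly the same filter, passed through the LPS arrays alone, so the count is no support for the call. With normexp background correction the change turned to −0.76.

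miR-3070-3p, at the Meg3 end, was also detected on the LPS arrays only. It gave −2.30, 1.04 and 3.42 in control and 33.8, 25.2 and 31.1 in LPS before scaling, and it was well above background on 1 of 3 LPS arrays. Its log2 change was 0.48 (SE 0.15, limma adjusted p = 0.0217), measured from a floor at which all its control values lay. Scaled to the spiked-in RNAs the bound came out at 1.06-fold, but it uses LPS 2 and LPS 3, where the member was not well above background. No fold can therefore be given there, nor unscaled or in the scaling used here. As miR-3070-3p too passed the filter through the LPS arrays alone, a count of alternatives is no support for its call. The call held in 16 of 23 alternatives. It ended with the floor 2 times as high, where the change was 0, with the gene total (limma adjusted p = 0.0579) and with no filter (0.176), and it turned to −0.61 with normexp. It also ended without control 1 (limma adjusted p = 0.0547), without control 3 (0.0591) and without LPS 3 (0.0581), and without LPS 1 the change was 0.31.

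miR-487b-3p was detected on LPS 1 and LPS 3 and was not tested. Its brighter probe gave 1.34, 3.98 and 2.77 in control and 21.0, 22.8 and 23.5 in LPS, so the LPS array without a detection call lay between the other two. Its gene total in the files was 183, 3.18 and 232 on the same 3 arrays. It was well above background on 0 of 3 LPS arrays, and its level there was close to that of the brightest undetected member, miR-433-5p.

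Probe composition differed between detected and undetected members. The motif CCC, searched on the probe strand only, occurred in the brightest probe of 6 of the 7 detected members and of 10 of the 72 undetected ones (13.9%). It occurred in 41.8% of the 457 other miRNAs detected on any array and in 15.2% of the 1345 others that were not, so the same difference was present outside the cluster. The brightest probes of 4 detected members are shown with runs of at least 3 C in capitals.
miR-370-3p: accaggttccaCCCC
miR-3070-3p: tctaCCCCtgacggt
miR-134-5p: CCCCtctggtcaa
miR-3072-5p: cctgCCCtCCCtc
C, the base that pairs with G of the miRNA, made up 21.4% (miR-494-3p) to 69.2% (miR-3072-5p) of the brightest probes of the 7 detected members. Its median was 40% over these 7 and 22.2% over the 72 undetected members. Outside the cluster the medians were 36.8% for detected and 25% for undetected miRNAs. The detected member with no such run was miR-300-5p, whose probe holds TCTC. This motif occurred in 14.3% of detected and 2.78% of undetected members, and in 16.2% of other detected and 4.61% of other undetected miRNAs. It is named here because of that probe, so its presence there is not a separate result. The part of probe composition in these signals was not tested. No other mature mouse miRNA in the RefSeq table held the stretch that these probes pair with, less its last base.

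Of the 72 undetected members, 16 had a higher mean in LPS and 56 a lower one (22.2% higher), against 32.9% higher among the 1345 other undetected miRNAs. The groups did not overlap, with LPS higher, for 4 of them, miR-431-3p, miR-433-5p, miR-341-3p and miR-1188-3p. LPS was lower without overlap for 10, among them miR-127-3p and miR-494-5p. Among the 1345 others the groups did not overlap for 14.3% with LPS higher and for 14.9% with LPS lower. All these values lie at background level before scaling and carry no direction.

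The RefSeq table places a further 36 arms measured on the array between Dlk1 and Dio3, which the files do not map into the window. Of these, 5 were detected on at least 1 array: miR-882, miR-1906, miR-3070-2-3p, miR-432 and miR-673-5p. miR-882 was detected on all 6 arrays, with 1638, 1773 and 1795 in control and 856, 851 and 873 in LPS before scaling. miR-1906, which has 2 hairpins on 2 chromosomes, was detected in LPS only, at 327, 442 and 441 against 2.91 to 4.08 in control. miR-3070-2-3p, which shares its seed with miR-3070-3p, was also detected in LPS only, at 42.5, 39.7 and 39.6. With these arms 12 of 115 arms of the domain were detected on any array.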

How the data were processed

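Exosomal RNA of 3 control and 3 LPS samples was hybridised to Agilent mouse miRNA arrays. The deposited scanner files hold background-subtracted intensity per spot, made with Feature Extraction 10.7.1.1 per the file headers (the submitters' processing notes name 9.1). The authors' value table is in log2 units, each column with a median of 2.73 to 2.74. It correlated with the log2 signal at r = 0.896 to 0.963 across miRNAs, its normalization and centring are unknown, and it was an alternative only. Flags (other values) were used as the authors deposited them.

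Spots of a probe were averaged without control and outlier spots, and a miRNA took its brightest probe. Scaling set the 75th percentile of each array equal, taken among 198 miRNAs that every array detected. Values under 9.89 were raised to it, the typical lowest scaled signal of a detected miRNA (log2 3.31), before taking log2. A probe was well above background when at least 50% of its spots were flagged so. The difference between LPS and control was estimated in limma 3.58.1 in R 4.3.3, checked on simulated data. The members, lists and rules, such as naming every tested member, were chosen with earlier results of these data known. Whole profiles correlated at r = 0.596 to 0.612 between the groups. In a separate check of pairing, which did not correlate whole profiles, same-numbered samples gave r = −0.401, −0.221 and −0.279, and differently numbered ones −0.324 to 0.431. With 3 samples per group these values cannot decide whether replicate numbers pair the samples. The labels do not say that they do, so the main comparison was unpaired. The alternatives covered scaling, background, probe summary, filter, detection, floor, variance, blocks and left-out replicates.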

Additional observations from a re-analysis of the deposited data

How the results depend on the processing

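In all 25 alternatives miR-494-3p was called higher in LPS; 1 of the 25, within slide row 1, has a single LPS array, assumed to vary like the controls. miR-300-5p was called lower in 24 of 25, the exception being the gene total (0.14), and miR-3072-5p in 23 of 25, the exceptions being no scaling and the spiked-in RNAs (0.063). miR-134-5p was called lower in 19 of 25. It turned positive with the percentile over all miRNAs (0.62), with no scaling (1.66) and with the spiked-in RNAs (1.85). It stayed below 0 without a call with the gene total (limma adjusted p = 0.378), with the value table (0.153) and within slide row 1 (change −0.38). miR-370-3p was called higher in 23 of 24 alternatives and miR-3070-3p in 16 of 23. Both passed the filter through the LPS arrays alone, so these counts are no support for the calls. With normexp miR-370-3p was at −0.76 and miR-3070-3p at −0.61. That setting adds an offset of 50 to every spot before the arrays are scaled. The part of the offset in these 2 values was not tested.

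Of the members, 3 were called higher and 3 lower. Lower calls numbered 1 with no scaling, with the spiked-in RNAs and with the gene total, 5 with normexp and 16 with no filter. Higher calls numbered 1 with normexp and 1 among miRNAs detected on all arrays, where fewer were tested. They numbered 4 with the percentile over all miRNAs, with no scaling and with the spiked-in RNAs. Leaving out a replicate gave 2 to 3 higher and 3 lower. The median change of members detected on all arrays, −1.46, was −0.27 with the percentile over all miRNAs, 0.76 with no scaling, 0.95 with the spiked-in RNAs, −1.85 with quantile normalization, −1.78 with median centring, −1.60 with normexp, −0.29 with the gene total, −1.57 with the value table, −2.49 with well above background as detection, −1.32 blocked on slide row and −1.29 within row 1. Without single replicates it was −1.59 to −1.42. With the replicate block, which rests on numbers that are not said to pair the samples, 3 were higher and 3 lower, with a median of −1.46.

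LPS arrays detected 2.67 more members than control arrays (2.5 to 3 without single replicates). The difference in the share of detected signal, 0.0717 percentage points, was 0.0901 with well above background as detection, 0.0613 within row 1, 0.242 with the gene total, 0.173 with the mean over probes, and 0.0677 to 0.0770 without single replicates. Signal over background limits the calls on miR-134-5p, miR-370-3p and miR-3070-3p.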
